A study of Mus musculus with 36 samples.

Results

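The creatine kinases and the genes that bring creatine into muscle or make it were measured in fast and slow leg muscles of mice with and without the third immunoglobulin-like (Ig3) domain of MuSK, the muscle-specific kinase. The set holds 7 of the 51912 genes in the count tables: the kinases Ckb, Ckm, Ckmt1 and Ckmt2, the creatine transporter Slc6a8 and the synthesis enzymes Gatm and Gamt. It was selected on the counts of 1 member, because Ckb was lower in mutant soleus, so the soleus genotype values below are a description, without a test. All 7 genes passed the filter on low counts in every comparison.

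RNA-seq had been done on whole tibialis anterior (TA) and soleus muscle of 3-month-old male C57BL/6 mice, with 9 libraries in each of 4 groups and 36 in all. The WT groups carry intact Musk. The ∆Ig3-MuSK groups carry a germline CRISPR-Cas9 deletion of the 2 exons that encode Ig3, so the change is present in every cell of the animal and not in muscle fibers alone. No treatment is named for any group. Because each library is RNA from a whole muscle, fewer cells of a type and less RNA per cell cannot be told apart.

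Total counts per library ranged from 43492062 to 78660422. The muscles carried their defining markers: Myh7, the slow myosin heavy chain, lay at 6542 to 10258 CPM (counts after scaling for library size) in WT soleus and 1.99 to 21.0 in WT TA, whereas Myh4, the fastest type, averaged 1677 CPM in WT soleus and 19210 in WT TA. Musk itself averaged 15.2 ± 1.82 CPM in WT and 11.3 ± 3.29 in ∆Ig3-MuSK soleus (mean ± SD, n = 9; adjusted p = 0.0978), and 4.25 ± 0.948 and 3.09 ± 0.391 in TA (adjusted p = 0.135). Since these counts span the deleted and the retained exons, they check the genotype only in part. No pair of libraries agreed within sampling noise.

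Creatine kinases move a phosphate group between ATP and creatine. In muscle, the cytosolic isozyme Ckm sits close to myosin and the calcium pumps, where it regenerates ATP from phosphocreatine, and the sarcomeric mitochondrial isozyme Ckmt2 charges creatine at the sites of ATP production. Ckb is the cytosolic brain-type isozyme, found in many tissues, and Ckmt1 is the ubiquitous mitochondrial form. Muscle takes up most of its creatine from blood through Slc6a8, after Gatm has made guanidinoacetate from arginine and glycine and Gamt has methylated it, chiefly in kidney and liver.

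The abundance of the 7 transcripts spanned several orders of magnitude. Per kilobase of annotated exon, Ckm was highest in all 4 groups, at 2215 ± 463 CPM per kilobase in WT soleus and 6041 ± 639 in WT TA. Ckmt2 followed at 959 ± 97.8 in WT soleus and 803 ± 205 in WT TA, and Slc6a8 came next at 33.4 ± 3.47 and 25.5 ± 3.81. Ckb ranked above Gamt in soleus, at 5.12 ± 0.930 against 1.81 ± 0.459 CPM per kilobase in WT, and below it in TA, at 2.84 ± 0.228 against 5.12 ± 0.410. Gatm was near 1.17 to 1.30 in the 4 groups, and Ckmt1 was the lowest at 0.0871 to 0.133. This order was the same when the length of the principal transcript was used in place of all exons, but the levels themselves depended on that choice. With the principal length, WT soleus Ckb was 10.1 ± 1.83 CPM per kilobase and Slc6a8 52.6 ± 5.45, while Ckmt2 stayed at 959 ± 97.8. Ckmt1 rested on only 3 to 44 reads per library, so its values carry counting error of their own.

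**Figure D1:**
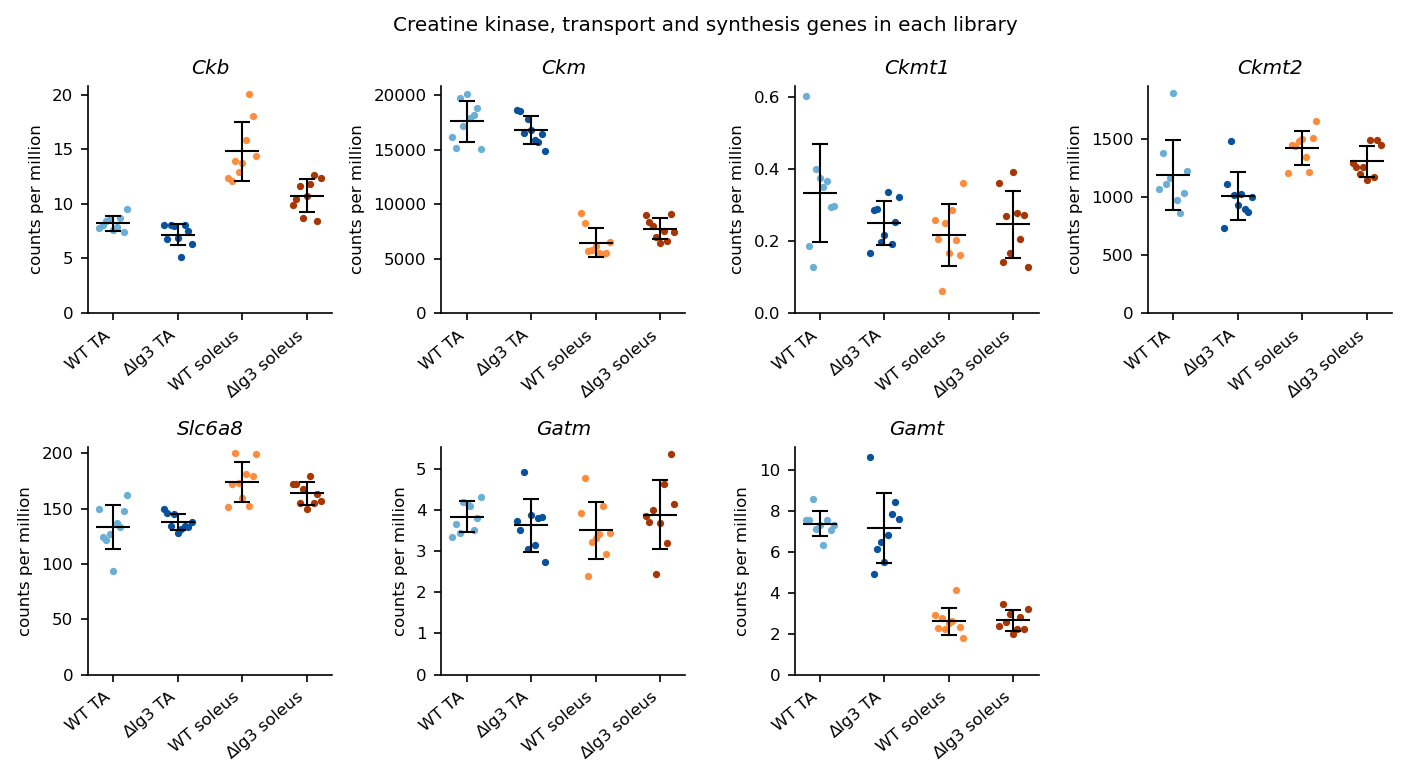
Library-scaled counts (CPM) of each of the 7 genes, 1 point per library, in WT and ∆Ig3-MuSK TA (blue) and soleus (orange); black bars are mean ± SD over 9 libraries and each vertical axis starts at 0. Ckb lies higher in soleus than in TA, Ckm and Gamt lie lower in soleus with no overlap, and 7 of the 9 ∆Ig3-MuSK soleus libraries fall below the lowest WT soleus library for Ckb.

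Among the 4 kinases, Ckm and Ckmt2 made up nearly all transcripts per kilobase in either muscle. Ckm accounted for 69.2 ± 4.66% of them in WT soleus and 88.2 ± 2.58% in WT TA, and Ckmt2 for 30.6 ± 4.63% and 11.7 ± 2.58%. Ckb was 0.167 ± 0.0491% of the kinase transcripts in WT soleus, 0.107 ± 0.0220% in ∆Ig3-MuSK soleus, 0.0420 ± 0.00646% in WT TA and 0.0386 ± 0.00508% in ∆Ig3-MuSK TA. These small shares depend on the length used. With principal transcript lengths they were 0.314 ± 0.0926%, 0.200 ± 0.0414%, 0.0782 ± 0.0121% and 0.0718 ± 0.00945% in the same order of groups. The number of Ckm reads for each Ckb read ran from 268 to 743 in WT soleus and from 524.9 to 1082 in ∆Ig3-MuSK soleus, ranges that overlap. In TA it ran from 1590 to 2644 in WT and from 1954 to 3069 in ∆Ig3-MuSK, above every soleus library.

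Ckm and Ckmt2 share exon sequence with genes on the opposite strand, and the libraries hold no strand information. Ckm (chromosome 7, 19404776 to 19422841, GRCm38) overlaps A930016O22Rik, an annotated noncoding gene, over 451 bases of exon. Reads assigned to A930016O22Rik equalled 48.7 to 56.9% of those assigned to Ckm in every library. Ckmt2 (chromosome 13, 91853387 to 91876885) overlaps 1700119I11Rik over 84 bases, and that gene held 17.5 to 20.9% as many reads as Ckmt2. The annotated exons of Ckm span 2913 bases and those of Ckmt2 1486. Reads over the shared bases cannot be assigned to a strand, and how they were counted was not given. The Ckm and Ckmt2 levels are uncertain to the extent of those reads. How many of the partners' reads come from the members was not measured. The partners' differences ran with those of the members: A930016O22Rik had a log2 fold change of -1.51 between WT soleus and WT TA, and 1700119I11Rik one of 0.33. Ckmt1 overlaps Strc over 10 bases, and Strc held 2 to 30 reads per library.

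The genotype contrast in soleus is the one that picked the set. Ckb ran from 12.1 to 20.1 CPM in WT soleus with a median of 13.9, and from 8.41 to 12.7 in ∆Ig3-MuSK soleus with a median of 10.7. The groups overlapped only through the 2 highest mutant libraries, and 7 of 9 mutant libraries lay below the lowest WT one. The log2 fold change of ∆Ig3-MuSK over WT was -0.48 (SE 0.11). Across all genes tested in this contrast, 0.952% were called, 0.365% as higher and 0.586% as lower, and 0.0772% did not overlap between the groups, as 0 members did. A gene counted as called when its adjusted p fell under 0.05 and its fold change reached 1.2.

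The other 6 members showed smaller or opposite differences in soleus. Ckm ran from 5383 to 9171 CPM in WT with a median of 5827, and from 6462 to 9099 in ∆Ig3-MuSK with a median of 7570. The ranges overlapped, 6 WT libraries lay below the lowest mutant one, and the log2 fold change was 0.25 (SE 0.10). Ckmt2 averaged 1424 ± 145 and 1309 ± 137 CPM, a log2 fold change of -0.13 (SE 0.07), and Slc6a8 averaged 174 ± 18.1 and 164 ± 10.1, a log2 fold change of -0.10 (SE 0.06). Gatm averaged 3.51 ± 0.695 and 3.90 ± 0.830 CPM, and Gamt 2.62 ± 0.663 and 2.65 ± 0.493. Ckmt1, at 0.217 ± 0.0854 and 0.246 ± 0.0931 CPM, had a log2 fold change of 0.17 with a standard error of 0.26.

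Libraries with extreme Ckb or Ckm also differed in markers of other cells or fiber types. In soleus the 10 fibroblast and tendon markers all had negative log2 fold changes, with a median of -0.58 against -0.00170 over all genes, and 0 of 10 were called. Their summed level ran from 908 to 2490 CPM in WT and from 408 to 1386 in ∆Ig3-MuSK soleus. The WT replicates 7 and 8, with the highest Ckb at 20.1 and 18.04 CPM, had the highest sums at 2490 and 2062, and ∆Ig3-MuSK replicate 8, with the lowest Ckb at 8.41, had the lowest sum at 408. Col1a1 and Tnmd, which define fibroblasts and tendon cells, were above 0 in every library. Without these 3 libraries the Ckb log2 fold change was -0.30 (SE 0.08). They hold the highest WT and the lowest mutant Ckb values, so a smaller difference without them follows from the choice, whatever the markers. WT replicates 1 and 2 had the highest WT soleus Ckm, at 9171 and 8245 CPM, and the highest Myh4, at 6113 and 4086. Without them the log2 fold changes were 0.40 for Ckm and -0.55 for Ckb. These libraries hold the highest WT Ckm and the lowest WT Ckb values, so larger differences without them follow from the choice, whatever the Myh4 level. Of all genes tested in this contrast, 0.365% were called higher and 0.586% lower. Among the other marker lists in soleus, 9 of 17 circadian clock genes were called higher and 2 lower. Of 37 mitochondrially encoded genes 5 were called higher, with all 37 above 0 and a median log2 fold change of 0.23. In addition, 2 of 15 immediate early genes were called lower, 1 of 10 smooth muscle and pericyte genes lower and 1 of 11 neuronal genes higher. Without calls, 7 of 7 adipocyte markers had positive log2 fold changes (median 0.50), as did 1 of 8 macrophage and leukocyte markers (median -0.39), 1 of 8 endothelial markers (median -0.14), 9 of 10 Schwann cell markers (median 0.14) and 5 of 5 erythroid markers (median 0.29). The part that these cells, fiber types and states play in the Ckb and Ckm values was not tested.

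**Figure D2:**
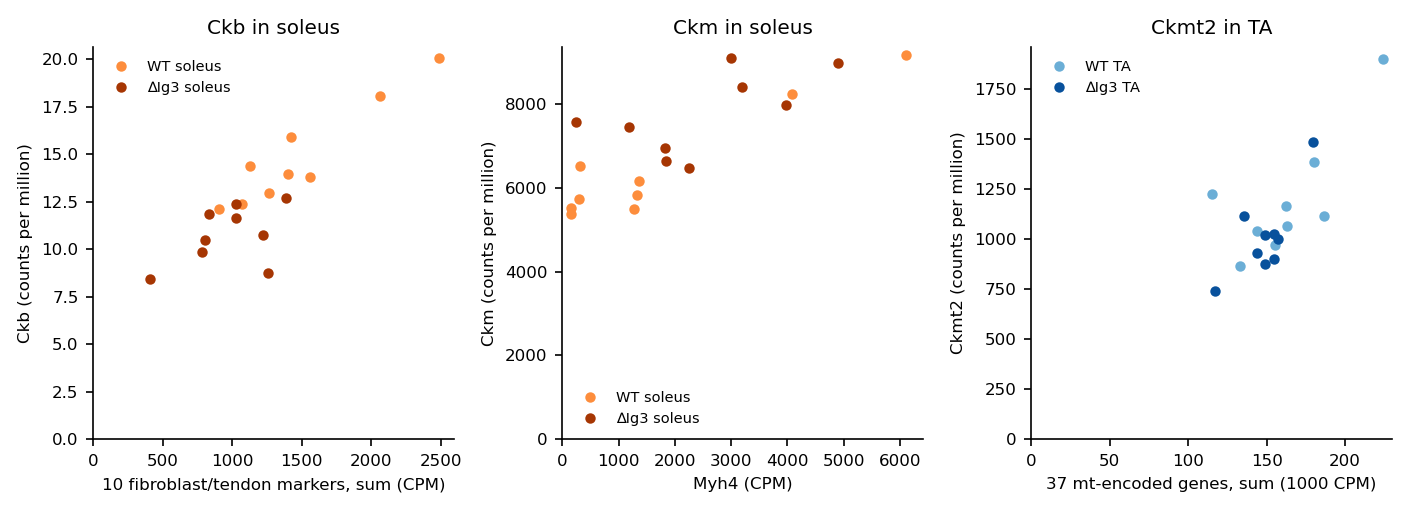
Member levels against markers of tissue composition, 1 point per library: Ckb against the summed CPM of 10 fibroblast and tendon markers in soleus (left), Ckm against Myh4 in soleus (middle), and Ckmt2 against the summed CPM of 37 mitochondrially encoded (mt) genes, on an axis in units of 1000 CPM, in TA (right). The WT soleus library with the highest Ckb (20.1 CPM) has the highest marker sum (2490 CPM), and the WT TA library with the highest Ckmt2 (1902 CPM) has the highest mitochondrial sum (224448 CPM).

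In TA, whose libraries did not choose the set, the same genotype contrast called 0 of the 7 members, and 0.0149% of all genes tested were called. The groups overlapped for all 7 members, and 0.0299% of all genes did not overlap. Ckb ran from 7.40 to 9.50 CPM in WT TA with a median of 8.03, and from 5.17 to 8.05 in ∆Ig3-MuSK TA with a median of 7.49. The ranges overlapped, 4 mutant libraries lay below the lowest WT one, and the log2 fold change was -0.19 (SE 0.08, adjusted p = 0.171). Ckm ran from 15105 to 20100 CPM in WT and from 14850 to 18667 in ∆Ig3-MuSK TA, with a log2 fold change of -0.07 (adjusted p = 0.585). Ckmt2, at 1193 ± 305 and 1010 ± 208 CPM, had a log2 fold change of -0.24 (SE 0.13, adjusted p = 0.263). For Ckmt1 the log2 fold change was -0.42 with a standard error of 0.23 (adjusted p = 0.254).

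Creatine uptake and synthesis genes lay close between the genotypes in TA. Slc6a8 averaged 133 ± 19.8 CPM in WT and 138 ± 7.28 in ∆Ig3-MuSK TA (log2 fold change 0.05, adjusted p = 0.696). Gatm averaged 3.85 ± 0.367 and 3.63 ± 0.638 CPM (adjusted p = 0.576), and Gamt 7.39 ± 0.593 and 7.17 ± 1.72 (adjusted p = 0.830). The number of genes at an unadjusted p under 0.05 was 4842 of 20075 in this contrast, and DESeq2, which called 225 genes, also called 0 of the 7 members.

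The genotype differences in the 2 muscles are set side by side, since the soleus one chose the set. For Ckb the soleus difference minus the TA difference was -0.28 on the log2 scale (SE 0.13), and for Ckm it was 0.33 (SE 0.13). For Ckmt1 it was 0.60 (SE 0.35), for Gatm 0.23 and for Slc6a8 -0.14. Of the 20841 genes tested for such a difference 0 were called by edgeR, with 5193 at an unadjusted p under 0.05.

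Ckb, Ckm, Gamt, Slc6a8 and Ckmt2 had larger log2 fold changes between muscles than between genotypes, as genes in general did. Over all genes tested the median absolute log2 fold change was 0.382 between WT muscles and 0.363 between ∆Ig3-MuSK muscles. It was 0.0860 between genotypes in soleus and 0.130 in TA. Between WT soleus and WT TA, edgeR called 5 of the 7 members, 2 higher and 3 lower in soleus, where 57.5% of all genes tested were called, 30.2% as higher and 27.3% as lower. Ckb was higher in soleus, at 14.8 ± 2.69 against 8.22 ± 0.660 CPM, a 1.81-fold difference with a log2 fold change of 0.85 (SE 0.09). Every WT soleus library was above every WT TA library for Ckb. Ckm was lower in soleus, at 6452 ± 1348 against 17598 ± 1862 CPM, 2.73-fold lower with a log2 fold change of -1.45 (SE 0.10, adjusted p = 6.2e-16), and the groups did not overlap. Gamt, the methyltransferase of the last synthesis step, was 2.81-fold lower in soleus, at 2.62 ± 0.663 against 7.39 ± 0.593 CPM, with a log2 fold change of -1.49 (SE 0.13, adjusted p = 6.5e-13). It too showed no overlap. In all, 3 of 7 members did not overlap between WT soleus and WT TA, as did 28.3% of all genes tested. The soleus libraries of both genotypes also enter the contrast that chose the set on Ckb, so Ckb is described between muscles without a p and its call is no independent support.

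Slc6a8 was 1.31-fold higher in WT soleus, with a log2 fold change of 0.39 (SE 0.07, adjusted p = 5.2e-06). Its levels ran from 151 to 200 CPM in WT soleus and from 93.5 to 162 in WT TA, and 6 soleus libraries lay above the highest TA one. Ckmt1 had a log2 fold change of -0.62 (SE 0.25, adjusted p = 0.0277), a call lost without WT soleus replicate 3 or 8 or WT TA replicate 1, where adjusted p reached 0.102. The call was also lost with a replicate block on the number that TA and soleus libraries share (-0.46, adjusted p = 0.0877), which called 4 members, and with library totals in place of TMM scaling (adjusted p = 0.117). Ckmt2 had a log2 fold change of 0.26 (adjusted p = 0.0422), under the 1.2-fold minimum, and Gatm one of -0.13 (adjusted p = 0.320). Without WT TA replicate 5, at 1902 CPM, the Ckmt2 log2 fold change was 0.35 and passed both criteria. The Ckmt2 adjusted p was under 0.05 in 6 of the 18 fits that left out 1 library, where it reached 0.101. In the other alternatives it was under 0.05 in 4 of 9 and reached 0.0861.

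**Figure D3:**
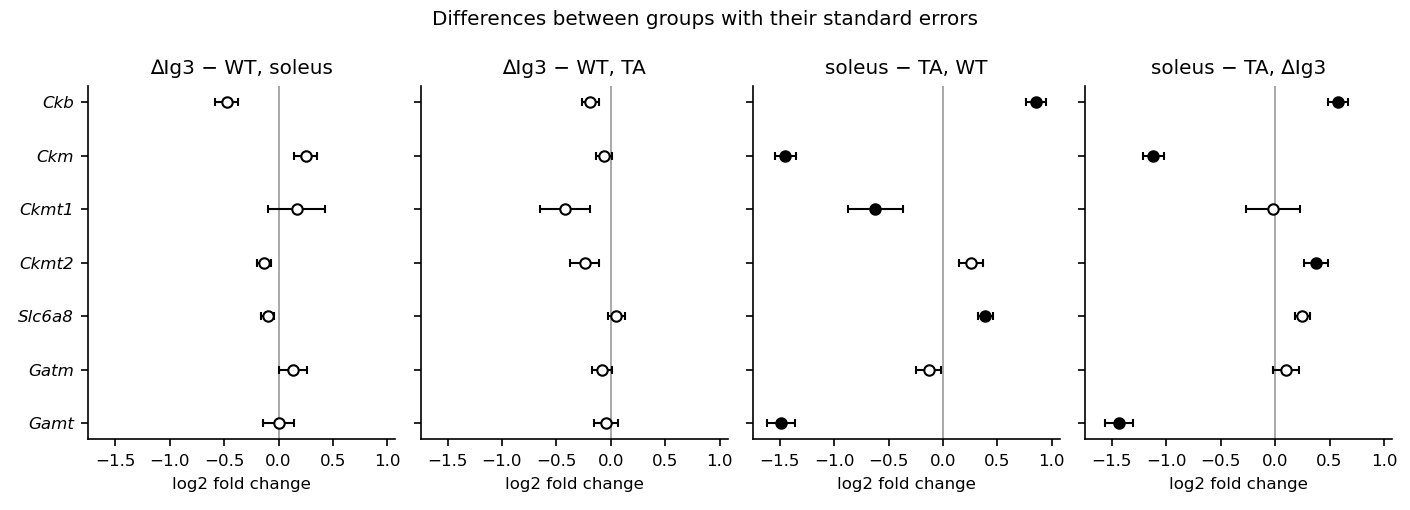
Log2 fold change of each member (points) with its standard error (bars) for the genotype contrast in soleus and in TA and for soleus against TA in each genotype; filled points passed an adjusted p of 0.05 and 1.2-fold, and the soleus genotype panel shows no calls because it chose the set. Ckb is positive and Ckm and Gamt are negative in both muscle contrasts.

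In ∆Ig3-MuSK mice, 4 of the 7 members were called between soleus and TA, 2 higher and 2 lower in soleus, where 56.1% of all genes tested were called, 28.5% as higher and 27.6% as lower. Ckb had a log2 fold change of 0.58, described without a p as above, and Ckmt2 was higher in soleus by 0.37 on the log2 scale (adjusted p = 0.00365). Ckm had a log2 fold change of -1.12 (adjusted p = 7.0e-13), and Gamt of -1.44 (adjusted p = 1.8e-12). Slc6a8 had a log2 fold change of 0.25 (adjusted p = 0.00167), under the 1.2-fold minimum, although each ∆Ig3-MuSK soleus library lay above each TA library. Together 4 of 7 members, Ckb, Ckm, Slc6a8 and Gamt, did not overlap, against 29.4% of all genes tested. Gatm and Ckmt1 were not called, at 0.10 and -0.02.

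Across the 4 groups the order of Ckb levels was WT soleus, ∆Ig3-MuSK soleus, WT TA and ∆Ig3-MuSK TA. Neighbours in that order overlapped in each case: ∆Ig3-MuSK soleus began at 8.41 CPM, below the highest WT TA library at 9.50, and the TA groups did not pass the test. For Ckm the order was WT TA, ∆Ig3-MuSK TA, ∆Ig3-MuSK soleus and WT soleus, and only the middle pair did not overlap, with 14850 CPM as the lowest ∆Ig3-MuSK TA value and 9099 as the highest ∆Ig3-MuSK soleus value.

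The sequences just before the starts of Ckb, Ckmt2 and Gamt are shown because Ckb and Gamt did not overlap between the muscles, in opposite directions, and because Ckmt2 is the main mitochondrial kinase here, called between the ∆Ig3-MuSK muscles and not between the WT ones. Each is the 250 bases upstream of the RefSeq start (GRCm38.p6), read 5′ to 3′ on the gene's strand and free of annotated exons. RefSeq entries matched 6 of the 7 members, Slc6a8 being the one not matched. Capitals mark 5 motifs, each searched on both strands. These are CANNTG (the E-box bound by myogenic factors), the box with the letters CCAAT, the TATA box as TATAAA, a nuclear receptor motif spelled AAGGTCA, and the outer letters of the MEF2 site, which are CTA and TAG with any 4 bases between them. The last of these can contain TATAAA.

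Ckb, chr12:111672339-111672588, minus strand:
Ckb: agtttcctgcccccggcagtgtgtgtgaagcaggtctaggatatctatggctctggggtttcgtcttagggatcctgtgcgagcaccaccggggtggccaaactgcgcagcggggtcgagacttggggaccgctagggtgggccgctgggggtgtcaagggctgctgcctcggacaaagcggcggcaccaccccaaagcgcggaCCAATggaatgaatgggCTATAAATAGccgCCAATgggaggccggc
Ckmt2, chr13:91876886-91877135, minus strand:
Ckmt2: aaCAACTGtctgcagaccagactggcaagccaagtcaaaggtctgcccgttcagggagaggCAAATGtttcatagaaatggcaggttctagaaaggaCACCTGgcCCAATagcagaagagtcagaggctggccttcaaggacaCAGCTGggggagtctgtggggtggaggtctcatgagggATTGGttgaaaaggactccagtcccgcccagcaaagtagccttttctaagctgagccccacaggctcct
Gamt, chr10:80261013-80261262, minus strand:
Gamt: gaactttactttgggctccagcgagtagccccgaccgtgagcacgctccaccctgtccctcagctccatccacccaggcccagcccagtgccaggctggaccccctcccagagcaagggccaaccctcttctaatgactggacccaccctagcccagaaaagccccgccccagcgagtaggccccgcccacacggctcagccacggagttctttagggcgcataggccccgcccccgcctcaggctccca

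The Ckb window held CTATAAATAG from 29 to 20 bases before the start, a match to the outer MEF2 letters that also contains TATAAA, and 2 copies of CCAAT. It held no CANNTG. The Ckmt2 window held 4 copies of CANNTG and 2 of CCAAT, 1 of them on the reverse strand as ATTGG, and the Gamt window held none of the 5 motifs. Of 32817 mouse windows of the same length, 3.20% held the outer MEF2 letters, 12.4% the TATA box, 33.8% the CCAAT box, 66.2% the E-box and 4.08% the nuclear receptor motif. A match of letters is a description of the sequence and shows no bound factor.

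Within groups, the genes whose levels ran most like those of a member were found from log2 CPM after each group mean was subtracted, over 36 libraries and 13514 genes. Ckb was closest to Loxl1 (Pearson r = 0.785), Dpysl3 (0.743) and Cd248 (0.738). Within soleus alone these were 0.833, 0.834 and 0.821, and within TA alone 0.696, 0.554 and 0.575. Ckm was closest to its overlapping partner A930016O22Rik (0.973), then to Adssl1 (0.921) and the glycolytic enzyme Aldoa (0.901). Ckmt2 was closest to its own partner 1700119I11Rik (0.979), then to the myoglobin gene Mb (0.862) and Uqcrc2 (0.849), a subunit of respiratory complex III. Slc6a8 was closest to Rab11fip3 (0.818), Mark4 (0.810) and Ankrd33b (0.797). Within soleus alone these were 0.633, 0.569 and 0.755, and within TA alone 0.903, 0.913 and 0.819. WT TA replicate 5 was the lowest library of the series for Slc6a8 and for each of these genes. These points share the depth and scaling of each library. Among the members other than Ckmt1, Ckb and Ckm had r = -0.41, and the other pairs ran from -0.39 to 0.43.

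Genes that work beside the creatine kinases were counted in 7 lists, given in the order of their link to phosphocreatine. Between WT soleus and WT TA, 65 of their 88 tested genes were called, or 73.9%, beside 57.5% of all genes, so calls within a list are to be read against that share. The 14 tested genes of adenylate kinase and AMP metabolism, a second way to regenerate ATP, included 2 higher and 9 lower in WT soleus than in WT TA, with a median log2 fold change of -0.34 against 0.0176 over all genes. Ak1, the main adenylate kinase of muscle, had a log2 fold change of -1.11 (adjusted p = 6.2e-18), and Ampd1, the muscle AMP deaminase, of -1.51 (adjusted p = 1.5e-17), while Ampd3 had one of 2.62. Of the 9 AMP-activated kinase genes 2 were higher and 4 lower. The largest differences among these were those of Prkag3 (-3.84) and Prkab2 (-3.02), regulatory subunits.

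Among 6 tested genes of mitochondrial ATP export, 2 were higher in WT soleus and 1 lower. Slc25a5 had a log2 fold change of 0.67 and the phosphate carrier Slc25a3 of 0.56, whereas Slc25a4, the muscle ATP/ADP exchanger, had one of -0.41 (adjusted p = 2.5e-05). The 13 ATPases that creatine kinases serve included 9 higher and 3 lower, led by Myh7 at 10.33 and the slow calcium pump Atp2a2 at 7.45, while the fast pump Atp2a1 was at -1.16 and Myh4 at -3.52. Of 20 receptors and muscle regulators, 10 were higher and 6 lower, led by Prox1 (4.39) and the estrogen-related receptor Esrrb (3.09).

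Creatine precursor supply and related transport were mixed. Of 19 tested genes of arginine, glycine and methyl-group supply, 7 were higher and 7 lower in WT soleus. The largest differences were those of Mat1a (4.38) and Bhmt (3.84), whose counts lie close to the limit of the filter. Among the alternatives other than leaving out 1 library, each was present in 7 of 9 fits, including the fit without a filter. Slc6a9 was present in all 9. Of 7 related carriers, 2 were higher and 1 lower: Slc6a9, a glycine transporter, had a log2 fold change of -0.60, and Slc16a12, a creatine exporter, of 0.60.

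**Figure D4:**
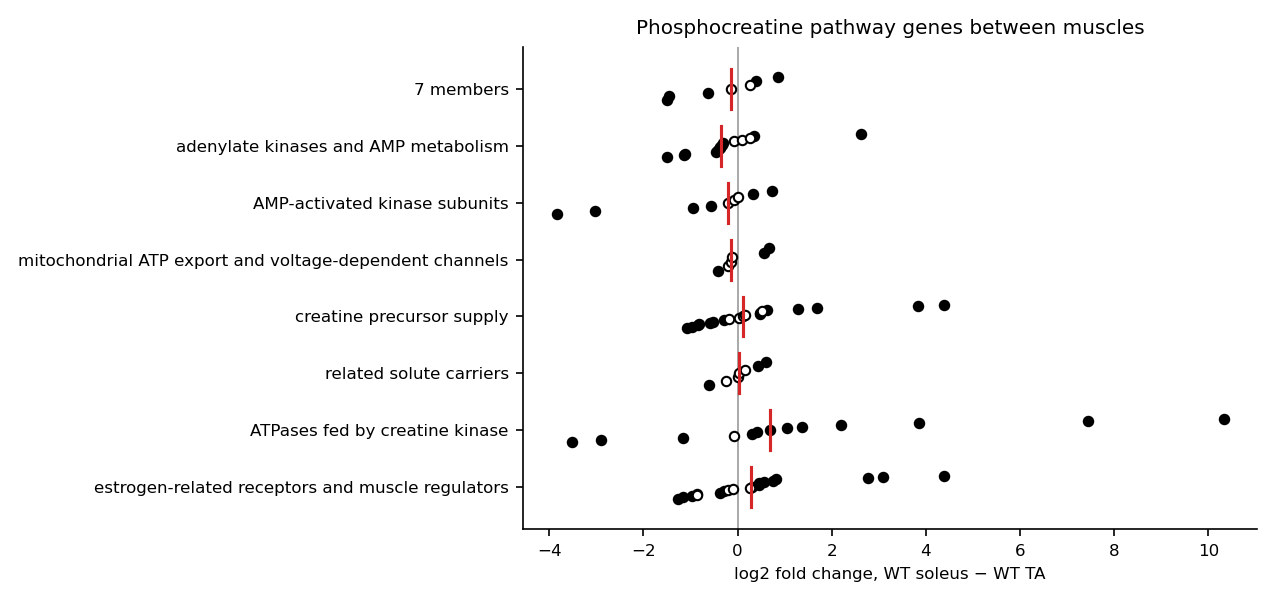
Log2 fold change of WT soleus over WT TA for the 7 members and the tested genes of 7 pathway lists; filled points passed an adjusted p of 0.05 and 1.2-fold, and red lines are list medians. The ATPases reach from -3.52 (Myh4) to 10.33 (Myh7), while the 7 members stay between -1.49 and 0.85.

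Between genotypes few genes were called at all, 0.952% of all genes tested in soleus and 0.0149% in TA. Calls in the same lists are to be read against those shares. In soleus, Slc7a2, an arginine transporter of the precursor supply list, was called with a log2 fold change of 0.35 (adjusted p = 0.0402). It averaged 24.4 ± 2.60 CPM in WT and 31.4 ± 5.12 in ∆Ig3-MuSK soleus. The call was lost in 12 of the 18 fits that left out 1 library, where adjusted p reached 0.0845. The 6 other lists held 0 calls in soleus. In TA 0 of the 85 tested genes of the 7 lists were called by edgeR, and DESeq2 called 0 genes of these lists. Ak1 had a log2 fold change of 0.09 in soleus and -0.16 in TA, and Slc25a4 of 0.05 and -0.23, with adjusted p of 0.163 or more.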

How the data were processed

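The data are read counts per Ensembl gene that the authors deposited as whole numbers in 1 table for each muscle, without normalization. Per the paper's methods, RNA was extracted from whole muscle, libraries were made without strand information, reads were trimmed with Trimmomatic and aligned to mm10 with GSNAP, and counts were made with htseq-count. The counting mode and annotation release were not given in the sources used here. Coordinates, exons and lengths came from GENCODE annotation of GRCm38 (the same assembly as mm10), and symbols were found for 51633 of 51912 identifiers.

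Groups came from the labels. Genes were kept by filterByExpr (minimum count 10, minimum total 15) and tested with the quasi-likelihood test of edgeR 4.0.16 in R 4.3.3, with TMM factors and Benjamini-Hochberg adjustment over all genes tested, two-sided. Genotypes were fitted within each muscle over 18 libraries, and muscles over all 36. A gene was called at an adjusted p under 0.05 and at least 1.2-fold. CPM used TMM factors over 36 libraries. At 43492062 to 78660422 counts per library, counting error was small for Ckm, Ckmt2 and Slc6a8, while Gamt and Gatm, with as few as 84 and 117 reads in a library, and above all Ckmt1 carry counting error that adds to their spread. The standard errors reflect the spread among libraries, each labelled as a separate sample. In simulated data where 200 genes had a log2 change of 1, the soleus fit recovered 91%, and 2.67% of its calls were false. Smaller changes, such as those of the members between genotypes, were not simulated, so the recovery of such changes is not known.

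The members and gene lists were chosen with earlier results of these data known. Named genes are the members, the called genes of each pathway list with the 2 largest differences, 7 metabolic and fiber genes, Musk, and the 3 genes most like each of 4 members; marker genes and overlapping partners were picked with their values in view. The alternatives tried were DESeq2 1.42.0, limma 3.58.1 with voom and sample weights, other scalings, no filter, a replicate block, other sets of libraries and each library left out in turn. The authors' own comparisons were not used. The result of 1 gene of the precursor supply list is not reported here.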

Additional observations from a re-analysis of the deposited data

Results flagged for a closer look

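In 28 sets of 9 libraries, each gene in each group, 3 held a library whose gap to its neighbour was large for its group's range. Chance flags about 1 in 20 sets. Ckmt2 was 1902 CPM in WT TA replicate 5, where the next library had 1386, and 1484 CPM in ∆Ig3-MuSK TA replicate 3, where the next had 1114. The same libraries had the highest summed mitochondrially encoded genes among the TA libraries of their genotype, at 224448 and 179379 CPM, and this relation was not tested. Gamt was 4.14 CPM in WT soleus replicate 7, where the next library had 2.93. That library also had the highest Ckb of the series, at 20.1 CPM, and the highest fibroblast and tendon marker sum, at 2490 CPM.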

How the results depend on the processing

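Ckb kept its direction in soleus in every fit, with a log2 fold change of -0.51 to -0.41 over the fits that left out 1 library and of -0.56 to -0.30 over the other alternatives. The lowest size came without the 3 libraries with extreme fibroblast and tendon sums. These also hold the highest WT and lowest mutant Ckb values, so a smaller size followed from the choice. This alternative, leaving out WT replicates 1 and 2 and the use of principal transcript lengths were chosen after seeing the data. In TA 0 members were called in every alternative. Between muscles, 4 to 6 members were called in WT and 4 to 5 in ∆Ig3-MuSK mice over all alternatives. Ckm and Gamt kept their calls in both muscle contrasts throughout. Ckb is counted among the members called and stayed higher in soleus in every fit. Its soleus counts chose the set, so this is a description and no independent support.

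With library totals in place of TMM factors the median of all genes moved to 0.20 between the WT muscles, with 8638 genes called higher and 3615 lower in soleus against 6297 and 5682, and in the genotype-by-muscle difference to -0.14. This scaling turned the uncalled values of Gamt in TA (0.00597), of Gatm between WT muscles (0.0462) and of Ckmt1 between ∆Ig3-MuSK muscles (0.0260). It also ended the call of Ckmt1 between WT muscles (adjusted p = 0.117) and added Ckmt2 there and Slc6a8 in ∆Ig3-MuSK mice. Limma-voom (0.41) and 5 fits without 1 library also added Ckmt2, and 2 such fits added Slc6a8. Ckmt2 between WT muscles had an adjusted p under 0.05 in 6 of the 18 fits without 1 library and in 4 of the 9 other alternatives. Slc7a2 lost its soleus call under library totals, in the fit of all 36 libraries and without the 3 libraries above (adjusted p = 0.0556, 0.266 and 0.113). In the soleus genotype contrast it gave 48 genes higher and 269 lower, against 71 and 114. DESeq2 called 162 higher and 324 lower there, and 164 and 61 in TA against 3 and 0. The causes were not tested.

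Leaving out 1 library turned the sign of uncalled values: Slc6a8 in TA ran from -0.00712 to 0.0898, Gamt in TA from -0.133 to 0.0131, and Ckmt1 between ∆Ig3-MuSK muscles from -0.129 to 0.0605. The Ckmt1 call in WT was lost without WT soleus replicate 3 or 8 or WT TA replicate 1.

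The labels give a TA and a soleus library the same number for 8 numbers per genotype. Deviations of such pairs correlated at 0.0451 to 0.509 in ∆Ig3-MuSK and 0.0189 to 0.245 in WT, over 0.1 in 7 and 5 of 8 pairs, and 6 and 3 libraries correlated best with their own number. With this replicate block Ckmt1 lost its WT call (-0.46, adjusted p = 0.0877) and Slc6a8 gained one in ∆Ig3-MuSK mice (0.27, adjusted p = 7.9e-05). The replicate numbers of the 2 genotypes did not pair libraries (-0.384 to 0.482 in soleus, -0.262 to 0.676 in TA), and that block left the Ckb direction and the TA count as they were.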
